A study of Mus musculus with 14 samples.

Results

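The Sprr2 genes encode short proline-rich proteins of the cornified envelope, the cross-linked shell of dead surface keratinocytes. The 10 members described here are Sprr2a1, Sprr2a2, Sprr2a3, Sprr2b, Sprr2d, Sprr2e, Sprr2f, Sprr2g, Sprr2h and Sprr2k, and each matched 1 of the 56691 gene IDs of the deposited count table. They were chosen by gene symbol with their levels in these libraries already known, so their differences between groups are described here and support no test. Sprr2i, the remaining Sprr2 gene of the cluster that is annotated as protein-coding in RefSeq, is given among the comparison genes.

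The libraries hold total RNA of whole paws of newborn mice, depleted of ribosomal RNA, with reads counted per gene. Mice were labelled WT or Krt9-/- (called Krt9 null below), Krt9 being the keratin gene of palm and sole epidermis. The sources used here give neither the type of Krt9 allele, nor the strain, nor whether each library is 1 animal. On postnatal day 0 (P0) there were 4 WT libraries (2 male, 2 female) and 2 Krt9 null libraries (1 male, 1 female). On postnatal day 3 (P3) there were 5 WT libraries (3 male, 2 female) and 3 Krt9 null libraries (1 male, 2 female). Nothing but genotype, day, litter number and sex separates the groups in the labels. The design asks how paw RNA differs between the genotypes on each day and between the days in each genotype.

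SPRR2 proteins carry short proline-rich repeats between end domains rich in glutamine and lysine, and transglutaminases tie these ends to loricrin, involucrin and other envelope proteins. They thus act as cross-bridges whose share varies between squamous epithelia. Their genes stand side by side in the epidermal differentiation complex, next to those of SPRR1, SPRR3, loricrin, involucrin and the late cornified envelope proteins. Several are known to be raised in stressed or wounded skin, and Sprr2d, Sprr2h and the envelope gene Rptn are known to be raised in mice that lack loricrin.

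Library totals ran from 28947715 to 41004173 counts. Levels are given as CPM (counts-per-million), a gene's counts relative to the library total after scaling by the trimmed mean of M-values (TMM). The targeted gene Krt9 was at 2.09 to 7.61 CPM in WT and at 5.32 to 6.08 CPM in Krt9 null paws on P0, and at 32.9 to 83.0 CPM and 7.74 to 25.2 CPM on P3, so its RNA did not tell the genotypes apart on P0. Markers of the tissues of a paw were present throughout, with summed levels of 8551 to 16037 CPM for 18 epithelial genes, 26853 to 82870 CPM for 8 fibroblast genes, 652 to 3529 CPM for 8 fast muscle genes and 386 to 3853 CPM for 8 cartilage and bone genes. The label female of WT replicate 4 on P0 stood beside an Xist level of 0.181 CPM and a Ddx3y (Y chromosome) level of 0.155 CPM, unlike any other library, and results are also given without it where it matters. The columns of the deposited table form 2 alphabetical runs, called run A (8 libraries) and run B (6 libraries) here, which cut across the groups. The sources used here do not say what the runs stand for. Run B holds WT replicate 4 and Krt9 null replicate 2 of P0, and WT replicates 1 and 5 and Krt9 null replicates 1 and 3 of P3. The mean log2 CPM of the 18 epithelial markers, called the epithelial score, also differed among libraries of 1 group. It was 8.68, 8.53, 8.70 and 7.82 in the WT libraries of P0, 8.22 and 7.91 in the Krt9 null libraries of P0, 7.81 to 8.26 in the WT libraries of P3, and 8.71, 7.91 and 8.55 in the Krt9 null libraries of P3. In bulk paw RNA, fewer cells of a type and less RNA per cell cannot be told apart.

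In the RefSeq annotation of GRCm38.p6 the cluster on chromosome 3 runs in the order Sprr2a1, Sprr2a2, Sprr2a3, Sprr2b, the pseudogene Sprr2c-ps, Sprr2d, Sprr2e, Sprr2f, Sprr2g, Sprr2h, Sprr2i, Sprr2j-ps and Sprr2k, all on the plus strand, followed by Sprr1b, Sprr3, Sprr1a and Sprr4 on the minus strand. RefSeq lists Sprr2g as a transcribed pseudogene, and the other 9 members as protein-coding. Their start regions are shown because most members carry the same motifs at the same places there and the Sprr2a copies do not. The RefSeq spans of the Sprr2a copies, 3961 to 6658 bases, are longer than those of the other members (1256 to 1734 bases). Whether their annotated starts correspond to those of the other members was not tested, so motifs may lie outside the windows read. Upstream windows of 250 bases, ending at the base before the RefSeq start, were read for 9 of the 10 members. Those of a copy of Sprr2a (chr3:92285054-92285303 for Sprr2a3) and of Sprr2b (chr3:92316455-92316704), Sprr2d (chr3:92338890-92339139), Sprr2e (chr3:92351893-92352142) and Sprr2h (chr3:92385435-92385684) are printed 5′ to 3′ on the plus strand, from RefSeq with the build GRCm38.p6. Capitals mark matches to the AP-1 letters TGAGTCA, bound by Fos and Jun proteins, and to the octamer letters ATTTGCAT, bound by POU domain factors.
Sprr2a3: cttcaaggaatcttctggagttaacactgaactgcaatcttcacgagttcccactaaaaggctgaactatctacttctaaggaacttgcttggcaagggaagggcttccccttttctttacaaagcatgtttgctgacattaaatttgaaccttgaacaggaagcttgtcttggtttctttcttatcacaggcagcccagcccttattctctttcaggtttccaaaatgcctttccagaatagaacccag
Sprr2b: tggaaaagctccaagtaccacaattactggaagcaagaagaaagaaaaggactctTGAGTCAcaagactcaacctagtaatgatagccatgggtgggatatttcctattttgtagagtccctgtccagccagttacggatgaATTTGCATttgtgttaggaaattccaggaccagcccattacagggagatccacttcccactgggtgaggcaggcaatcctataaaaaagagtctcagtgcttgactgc
Sprr2d: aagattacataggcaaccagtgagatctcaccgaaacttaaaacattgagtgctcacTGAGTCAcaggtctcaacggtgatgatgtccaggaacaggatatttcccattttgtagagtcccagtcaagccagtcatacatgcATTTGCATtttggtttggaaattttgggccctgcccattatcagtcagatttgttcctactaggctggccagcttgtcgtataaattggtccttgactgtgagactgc
Sprr2e: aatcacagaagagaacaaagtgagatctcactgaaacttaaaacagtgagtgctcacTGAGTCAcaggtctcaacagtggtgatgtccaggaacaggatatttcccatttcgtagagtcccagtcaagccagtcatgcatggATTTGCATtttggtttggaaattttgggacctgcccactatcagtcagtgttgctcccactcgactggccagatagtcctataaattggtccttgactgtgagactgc
Sprr2h: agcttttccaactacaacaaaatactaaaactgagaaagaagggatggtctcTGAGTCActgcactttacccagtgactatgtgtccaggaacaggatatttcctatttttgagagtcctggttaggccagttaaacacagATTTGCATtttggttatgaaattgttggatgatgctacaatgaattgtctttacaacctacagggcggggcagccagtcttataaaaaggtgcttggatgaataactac
The AP-1, octamer and TATA box (TATAAA) letters were each present in the same 6 windows, those of Sprr2b, Sprr2d, Sprr2e, Sprr2f, Sprr2h and Sprr2k, and in none of the Sprr2a copies. Their positions were nearly fixed. The first base of the AP-1 match lay 193 to 198 bases before the start, that of the octamer 108 to 112, and that of the TATA box 29 in each of the 6, and Sprr2k held another AP-1 match on the minus strand from base 182. Sprr2i, outside the list, had the same 3 matches at 193, 108 and 29 bases. Of all 32851 RefSeq windows of this length, 4.46% held the AP-1 letters, 1.60% the octamer, 12.4% the TATA box, 0.113% AP-1 with the octamer and 0.0335% all 3. The search covered both strands and 7 motifs. Of the other 4, the antioxidant response core TGACNNNGC was in Sprr2f alone (10.2% of all windows), the STAT core TTCNNNGAA in Sprr2a3 alone (7.02%), the CACCC box CCACCC in Sprr2b and Sprr2k (28.1%), and the grainyhead letters AACCGGTT in no member (0.116%). The STAT match of Sprr2a3 lay 249 to 241 bases before its start, in a stretch that the windows of Sprr2a1 and Sprr2a2 do not reach. That stretch was thus not read for Sprr2a1 and Sprr2a2. No match in a member overlapped another, although AP-1 and antioxidant letters can overlap. Octamer, Ets and interferon sites are known to drive the human SPRR2A promoter in keratinocytes. A match of letters is a description and not a binding site.

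**Figure D1:**
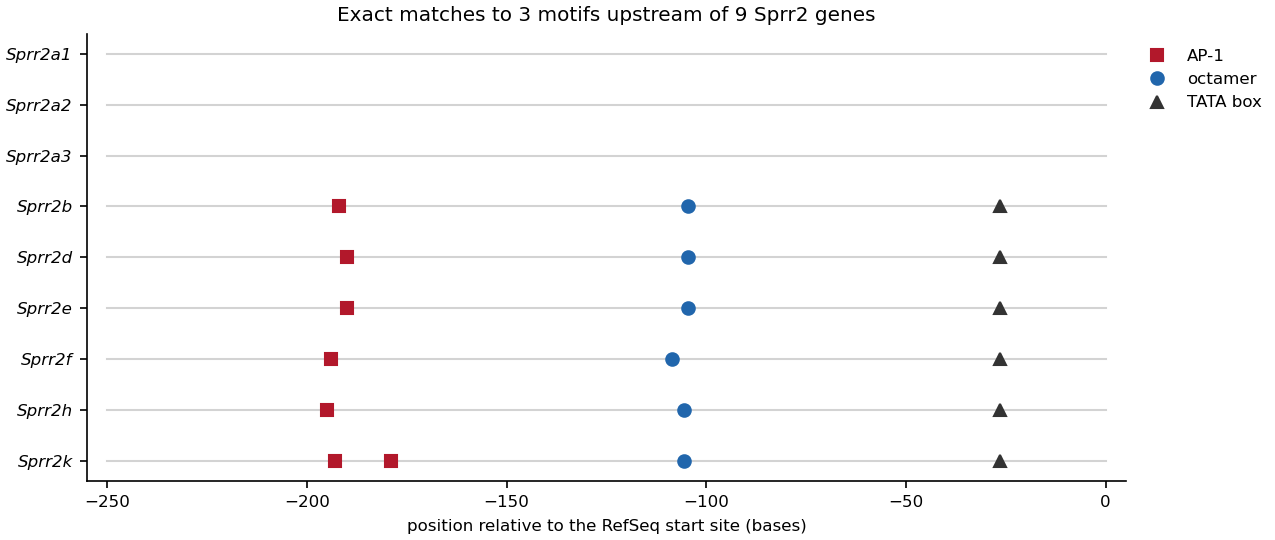
Position of exact matches to the AP-1, octamer and TATA box letters in the upstream windows of 9 Sprr2 genes. The x axis is the distance in bases from the RefSeq start site and each line is a gene. The 6 genes from Sprr2b onward carry all 3 at nearly the same distances. The windows of the 3 Sprr2a copies, whose RefSeq spans are longer, hold none.

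The windows also show how close the genes are as copies. Those of Sprr2a1 and Sprr2a2 were identical, and that of Sprr2a3 matched them over 222 bases at a shift of 28. Sprr2d and Sprr2e were 88.0% identical, Sprr2e and Sprr2f 65.9%, Sprr2h and Sprr2k 63.2% and Sprr2d and Sprr2h 47.4%, counted base by base at the best shift with no gaps. In the exons of the GENCODE M21 annotation, 92.5% of the 100-base windows of Sprr2a1, 92.8% of those of Sprr2a2 and 36.2% of those of Sprr2a3 recur in another Sprr2 gene. For Sprr2b and Sprr2e the shares were 0.438% and 1.10%, and for the other 5 members 0. How the authors treated reads that fit several genes is not given, so the split between the Sprr2a copies is uncertain, and their sum is given too.

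Summed over the 10 genes, the Sprr2 level was highest in WT paws at birth and lowest in WT paws on P3. It was 250, 202, 114 and 43.2 CPM in the WT libraries of P0 and 71.0 and 50.7 CPM in the Krt9 null libraries of P0. On P3 it was 27.6, 9.63, 18.1, 9.999 and 28.7 CPM in the WT libraries and 55.7, 13.9 and 73.8 CPM in the Krt9 null libraries. Every P0 library stood above every WT library of P3. On P0 the mean was 152 ± 92.1 CPM (SD, n = 4) for WT paws and 60.8 ± 14.3 CPM (n = 2) for Krt9 null paws, and on P3 it was 18.8 ± 9.18 CPM (n = 5) and 47.8 ± 30.7 CPM (n = 3). On P0 WT replicate 4 and Krt9 null replicate 2, and on P3 Krt9 null replicate 2, had the lowest epithelial score and the lowest Sprr2 sum of their groups. In the WT group of P3 replicate 4 had the lowest score (7.81, with a sum of 9.999 CPM). Replicate 2 had the lowest sum there (9.63 CPM, with a score of 7.99). The comparisons below are also given with the epithelial score in the fit.

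**Figure D2:**
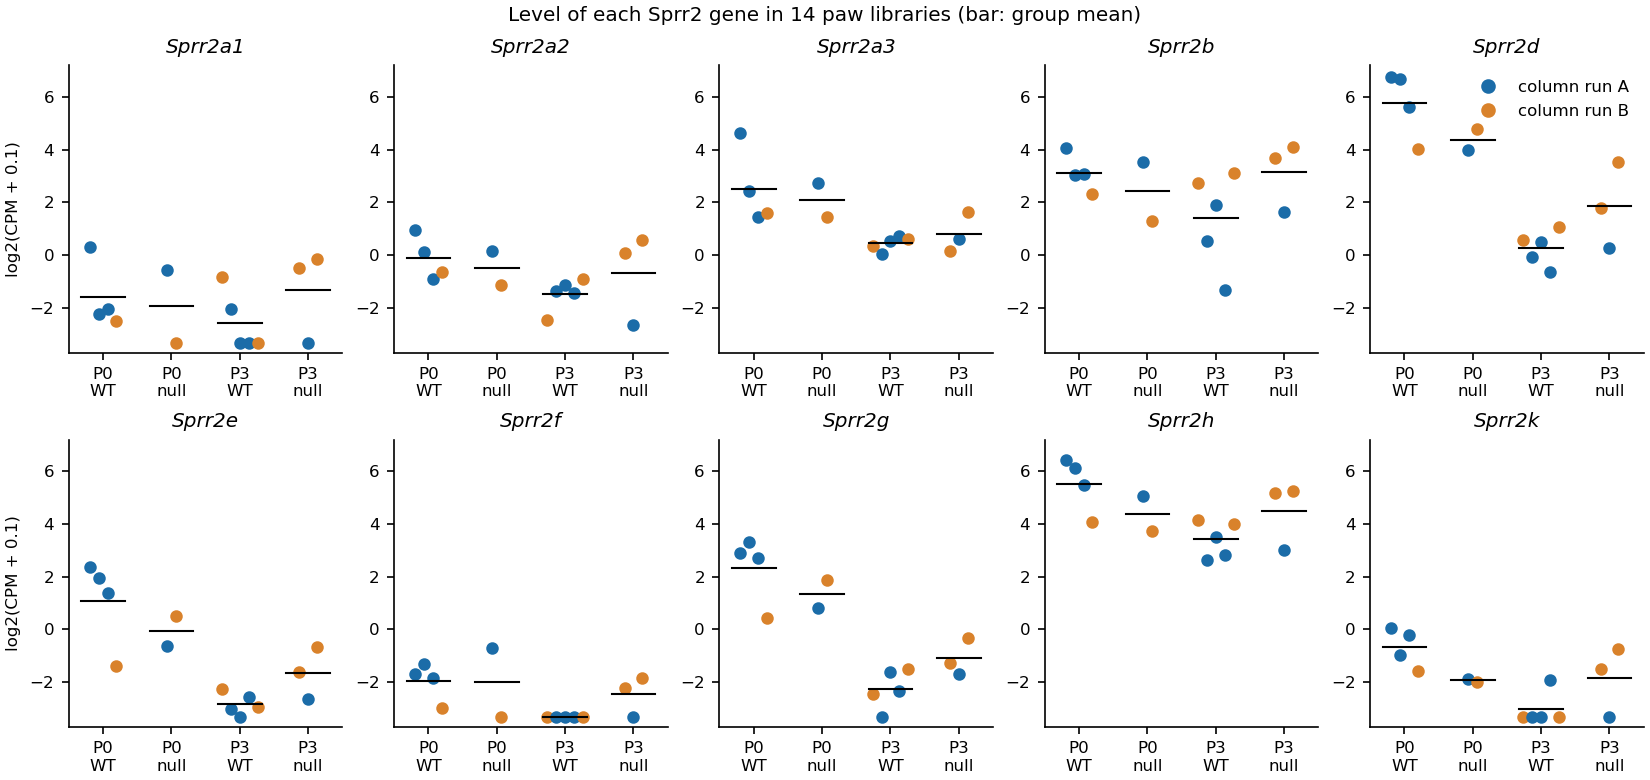
Level of each Sprr2 gene in the 14 libraries, as log2(CPM + 0.1) on the y axis, by group on the x axis. Points are libraries, coloured by run of columns, and the bar is the group mean of the plotted values. Sprr2d and Sprr2g lie lower in every P3 library than in every P0 library, and Sprr2b overlaps between all groups.

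Sprr2d (ENSMUSG00000042212.4) and Sprr2h (ENSMUSG00000046259.3) took most of the Sprr2 counts at birth. Sprr2d was at 107, 103, 48.9 and 16.1 CPM in WT and at 15.7 and 27.2 CPM in Krt9 null paws of P0. On P3 it was at 1.40, 0.84, 1.30, 0.53 and 1.98 CPM in WT and at 3.32, 1.12 and 11.5 CPM in Krt9 null paws. Each P0 library was above each P3 library, and the fitted P3 minus P0 difference was -5.82 on the log2 scale (SE 0.80, 56.5-fold) in WT and -2.06 (SE 0.92) in Krt9 null paws.

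Sprr2h was at 85.7, 69.5, 43.8 and 16.9 CPM in WT and at 32.9 and 13.1 CPM in Krt9 null paws of P0. Its P3 level was 17.7, 6.04, 11.2, 7.01 and 16.0 CPM in WT and 36.0, 8.04 and 38.3 CPM in Krt9 null paws. The WT groups of the days overlapped in 1 pair of libraries, both of run B (16.9 CPM on P0 and 17.7 CPM on P3). The fitted day difference was -2.23 (SE 0.56, 4.68-fold) in WT and 0.40 (SE 0.77) in Krt9 null paws.

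Sprr2e (ENSMUSG00000055030.2), the close copy of Sprr2d, followed it at a lower level. It was at 5.04, 3.72, 2.47 and 0.28 CPM in WT and at 0.55 and 1.31 CPM in Krt9 null paws of P0. By P3 the level was 0.11, 0.02, 0, 0.07 and 0.03 CPM in WT and 0.22, 0.06 and 0.53 CPM in Krt9 null paws. Within each genotype the days did not overlap. The fitted day difference was -5.84 (SE 0.89, 57.3-fold) in WT and -1.80 (SE 0.98) in Krt9 null paws, and the P3 level of WT rests on 8 counts in all.

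Sprr2g (ENSMUSG00000046203.13) was the third gene with so steep a day difference. It was at 7.39, 9.93, 6.47 and 1.24 CPM in WT and at 1.66 and 3.53 CPM in Krt9 null paws of P0. The P3 level was 0.08, 0, 0.22, 0.10 and 0.25 CPM in WT and 0.31, 0.21 and 0.70 CPM in Krt9 null paws. Every P0 library was above every P3 library. The fitted day difference was -5.61 (SE 0.72, 48.7-fold) in WT and -2.71 (SE 0.84) in Krt9 null paws, with 21 counts in the WT libraries of P3.

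Sprr2b (ENSMUSG00000050092.4) had the smallest fitted WT day difference. It was at 16.7, 8.16, 8.40 and 4.81 CPM in WT and at 11.4 and 2.37 CPM in Krt9 null paws of P0. P3 libraries held 6.60, 1.35, 3.65, 0.30 and 8.62 CPM in WT and 12.9, 2.99 and 16.9 CPM in Krt9 null paws. Groups overlapped in each of the 4 comparisons, and the fitted day difference was -1.17 (SE 0.81) in WT and 0.93 (SE 1.16) in Krt9 null paws.

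The Sprr2a copies were led by Sprr2a3 (ENSMUSG00000074445.5). Sprr2a3 was at 24.7, 5.23, 2.61 and 2.92 CPM in WT and at 6.54 and 2.65 CPM in Krt9 null paws of P0. P3 libraries held 1.18, 0.94, 1.36, 1.56 and 1.42 CPM in WT and 1.00, 1.42 and 3.02 CPM in Krt9 null paws. WT replicate 1 of P0 stood apart from all other libraries, and without it the WT day difference was -1.36, against -2.69 (SE 0.65) with it. Sprr2a1 and Sprr2a2 ranged from 0 to 1.15 CPM and from 0.06 to 1.85 CPM. The 3 copies summed before the fit gave a day difference of -2.48 (SE 0.62, 5.60-fold) in WT and -0.60 (SE 0.83) in Krt9 null paws.

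Sprr2k and Sprr2f stayed near the limit of these libraries, where 3 counts correspond to 0.0732 to 0.104 CPM. Sprr2k held 77 counts over the WT libraries of P0, 5 counts over those of P3, all in replicate 4, and 12 and 23 counts over the Krt9 null libraries of P0 and P3. Sprr2f held 22 counts over the WT libraries of P0 and 0 over those of P3, which makes it at least 8.94-fold lower on P3 with a floor of 3 counts over the group. In Krt9 null paws it held 18 counts on P0, all in replicate 1, and 9 counts on P3, so on that day it was at least 5.18-fold higher than in WT. Such floors cover counting error only.

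The order of the members by level differed between the days. Divided by exon length, the order in WT paws of P0 was Sprr2d (101 ± 64.5 CPM per kilobase, SD, n = 4), Sprr2h (71.8 ± 40.1), Sprr2b (12.1 ± 6.47), Sprr2g (9.61 ± 5.61), Sprr2e (4.45 ± 3.13), Sprr2a3 (3.08 ± 3.69), Sprr2k, Sprr2a2, Sprr2f and Sprr2a1, the last 4 below 1. Neighbours in this order overlapped in their libraries except Sprr2h and Sprr2b. On P3 the WT order began with Sprr2h (15.4 ± 6.91 CPM per kilobase, n = 5), Sprr2b (5.23 ± 4.46), Sprr2d (1.78 ± 0.814) and Sprr2a3 (0.449 ± 0.0834), and neighbours overlapped except Sprr2d and Sprr2a3. The Sprr2a gene models, at 2883 to 3003 bases, are longer than those of the other members (609 to 784 bases), which lowers their rank per kilobase.

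In the make-up of the Sprr2 counts Sprr2d had a smaller share on P3 than on P0, and Sprr2h a larger one. Of the summed CPM, Sprr2d made up 43.5% ± 5.72 (SD, n = 4) in WT paws of P0 and 6.65% ± 1.499 (n = 5) in those of P3, while Sprr2h made up 36.5% ± 2.55 and 62.9% ± 5.16. Sprr2b made up 7.31% ± 2.93 and 18.2% ± 10.3. In Krt9 null paws Sprr2d made up 22.2% and 53.7% on P0 and 5.96%, 8.04% and 15.6% on P3. The counts of Sprr2d per count of Sprr2h were 0.957 to 1.49 in the WT libraries of P0, 0.479 and 2.08 in the Krt9 null libraries of P0, 0.0758 to 0.139 in the WT libraries of P3 and 0.0921, 0.139 and 0.300 in the Krt9 null libraries of P3. No P3 library reached the lowest P0 library. This ratio is taken within a library, so neither the scaling nor the library total enters it, and it separated the days within run A and within run B.

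**Figure D3:**
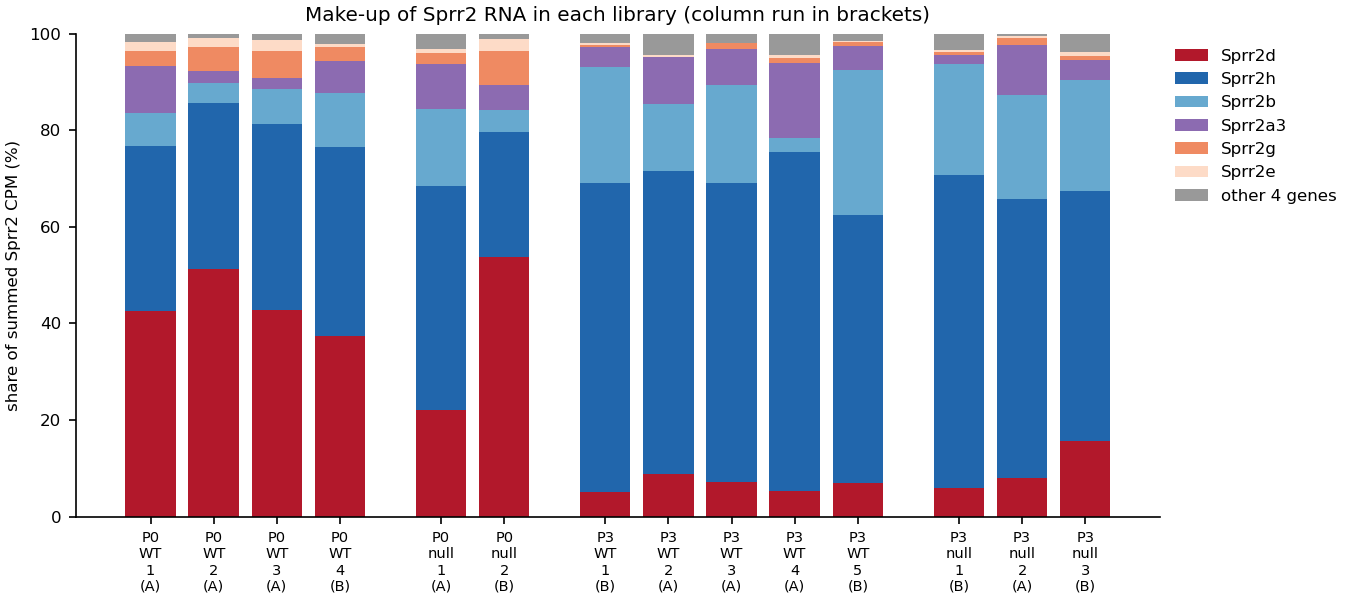
Share of each Sprr2 gene in the summed Sprr2 CPM of each library, in percent on the y axis, with libraries on the x axis by group and the run of columns in brackets. Sprr2d takes 22.2% to 53.7% of the P0 bars and 5.08% to 15.6% of the P3 bars, and Sprr2h takes 51.9% to 70.1% of the P3 bars.

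Across the whole table, 21619 genes were tested by edgeR, and 9 of the 10 members passed its filter on low counts, Sprr2f being the exception. Between P0 and P3 in WT paws, 6 of these 9 were called lower (Sprr2a3, Sprr2d, Sprr2e, Sprr2g, Sprr2h and Sprr2k) and none higher, where 16.6% of all genes were called, 8.07% lower and 8.49% higher. In limma voom 5 of the 9 were called, where 15.9% of all genes were. With litter as a replicate block in that fit (estimated correlation 0.555) 3 were called, namely Sprr2d, Sprr2g and Sprr2k, where 13.8% of all genes were. The 9 differences ran from -5.84 to -1.17 with a median of -2.69, against -0.01 for all genes tested. In 6 of the 10 members, Sprr2f included, the WT libraries of the days did not overlap, where 7.73% of all genes were lower without overlap. Because the members were known to move this way, these counts are given as a description.

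The size of the day difference depended on the run of columns. Within run A (3 WT libraries on each day) the differences were -6.55 for Sprr2d, -6.81 for Sprr2e, -6.21 for Sprr2g, -3.02 for Sprr2h, -2.87 for Sprr2b and -2.97 for Sprr2a3. Within run B, where P0 holds WT replicate 4 alone, they were -2.65, -1.76, -2.39, -0.01, 0.85 and -0.68. Sprr2d, Sprr2e and Sprr2g were thus lower on P3 in both runs, while the run B values of Sprr2h and Sprr2b were near or above 0. Sprr2k had -3.93 and -5.63, from few counts. In run B it held 9 counts in WT replicate 4 of P0 and 0 in WT replicates 1 and 5 of P3, so the counts do not fix the size of that difference. Adding the epithelial score to the fit gave -4.07 for Sprr2d, -3.55 for Sprr2e, -3.99 for Sprr2g and -0.96 for Sprr2h, with 3 members called where 7.4% of all genes were. Without WT replicate 4 of P0 they were -6.17, -6.26, -6.01 and -2.50.

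**Figure D4:**
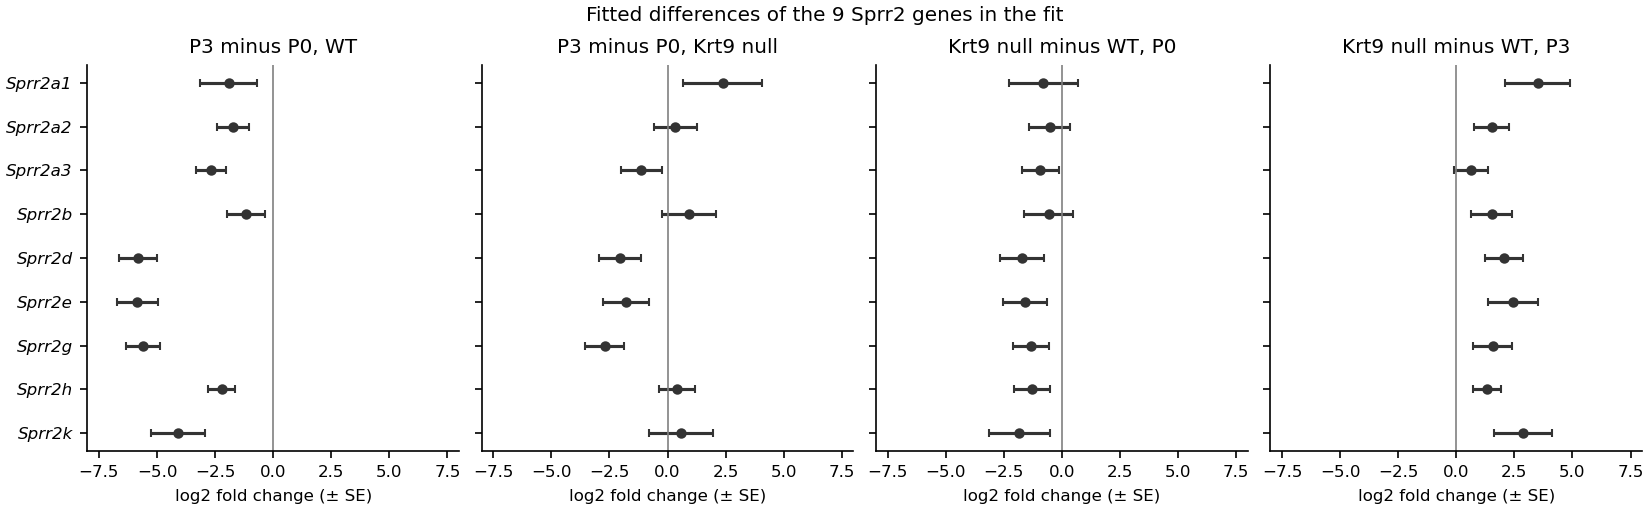
Fitted log2 fold changes of the 9 Sprr2 genes in the edgeR fit, with their standard errors, for the day difference in each genotype and the genotype difference on each day. The x axis is the log2 fold change and each row is a gene. The points lie between -5.84 and -1.17 for the day difference in WT paws, between -1.83 and -0.54 for genotype on P0 and between 0.64 and 3.50 for genotype on P3.

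In Krt9 null paws the day difference was split within the family. Sprr2d, Sprr2e and Sprr2g were lower on P3 in every library, at -2.06, -1.80 and -2.71, and Sprr2a3 had -1.13. In the fit of all libraries Sprr2a1, Sprr2a2, Sprr2b, Sprr2h and Sprr2k had values from 0.33 to 2.38. The highest of these was that of Sprr2a1, and the Sprr2a copies summed gave -0.60. The number of members without overlap was 3 of 10, where 13.8% of all genes were lower without overlap. None of the 9 was called by edgeR, where 0.768% of all genes were called. By edgeR 2 members had an unadjusted p under 0.05, as had 15.9% of all genes. DESeq2 called 1 and limma voom 0, where 5.06% and 0.754% of all genes were called. Within run A, with 1 Krt9 null library on each day, all 9 members were lower on P3, so the split was not seen there. Sprr2h had -1.92, Sprr2b -0.55 and Sprr2a2 -3.69 in that run. Sprr2a1 and Sprr2k, at 0 counts in its P3 library, had -4.48 and -6.26. Within run B Sprr2h, Sprr2b, Sprr2a2 and Sprr2k had 1.498, 2.84, 2.31 and 1.65. Sprr2a1, at 0 counts in the P0 library of run B, had 7.16. Sprr2d, Sprr2e and Sprr2g were lower on P3 in both runs, at -3.89, -3.28 and -3.34 in run A and -1.45, -1.71 and -2.26 in run B.

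Between the genotypes, all 9 members fitted lower in Krt9 null paws on P0 and higher on P3, but several directions rested on 1 library. Without WT replicate 1 of P0 the P0 differences of Sprr2a1, Sprr2a2 and Sprr2a3 turned to 0.17, 0.08 and 0.51. Without Krt9 null replicate 2 of P0 those of Sprr2a2 and Sprr2b turned to 0.01 and 0.13, and without Krt9 null replicate 3 of P3 the P3 difference of Sprr2a3 was -0.02. With the epithelial score in the fit 6 of the 9 turned on P0 and 1 on P3. On P0 the differences ran from -1.83 to -0.54 with a median of -1.29, against -0.0039 for all genes tested. Both Krt9 null libraries, at 71.0 and 50.7 CPM summed, lay between WT replicate 4 (43.2 CPM) and WT replicate 3 (114 CPM). Sprr2d had -1.72 (SE 0.93), Sprr2h -1.29 (SE 0.76) and Sprr2b -0.58 (SE 1.07). The number of members without overlap was 1 of 10, Sprr2k, where 4.82% of all genes were lower without overlap. Without WT replicate 4 it was 5 of 10 (Sprr2d, Sprr2e, Sprr2g, Sprr2h and Sprr2k), where 16.2% of all genes were lower without overlap, and the summed levels of the genotypes did not overlap either. Without Krt9 null replicate 1 it was 6 of 10, where 24.5% of all genes were, and without Krt9 null replicate 2 it was 2 of 10, where 18.4% were. None was called by edgeR, where 0.00463% of all genes were called, and none had an unadjusted p under 0.05 by edgeR, DESeq2 or limma voom. Within run B, with 1 library per genotype, the directions of Sprr2d, Sprr2e and Sprr2g turned, to 0.77, 2.20 and 1.52, from -2.41, -2.71 and -2.09 in run A.

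On P3 the genotype differences ran from 0.64 to 3.50 with a median of 1.56, against -0.01 for all genes tested. The highest was that of Sprr2a1, which had -1.60 within run A, where 3 of the 9 members turned. The Sprr2a copies summed gave a genotype difference of 1.03 (SE 0.67) on P3 and of -0.86 (SE 0.78) on P0. Sprr2d had 2.04 (SE 0.82, 4.12-fold), Sprr2h 1.33 (SE 0.60, 2.52-fold), Sprr2b 1.52 (SE 0.87) and Sprr2e 2.45 (SE 1.06). In Krt9 null replicates 1 and 3 each of Sprr2d, Sprr2h, Sprr2b and Sprr2e was above every WT library of the day, and in replicate 2 none of these 4 was. No member was without overlap, where 1.3% of all genes were higher without overlap. None was called by edgeR, where 0.00463% of all genes were called. The unadjusted p was under 0.05 for 5 members by edgeR, 7 by DESeq2 and 1 by limma voom, where edgeR put 6.67% of all genes there. DESeq2 and limma voom called 0 members, where 0.12% and 0.00463% of all genes were called. Replicates 1 and 3 are of run B, where the summed level was 55.7 and 73.8 CPM against 27.6 and 28.7 CPM in WT. Replicate 2 is of run A, with 13.9 CPM against 9.63 to 18.1 CPM in WT. Within run B Sprr2d had 1.96 and Sprr2h 1.15, and within run A they had 0.24 and 0.05. Adding the epithelial score to the fit gave medians over the 9 members of 0.30 on P0 and 0.15 on P3. Without Krt9 null replicate 3 the P3 difference of Sprr2d was 0.86. The 1 gene called in each genotype comparison was the keratin gene Krt19, whose P0 level was 1.39 ± 0.197 CPM (SD, n = 4) for WT and 154 ± 77.4 CPM (n = 2) for Krt9 null paws (6.77, SE 0.39, edgeR's adjusted p = 5.17e-06) and whose P3 level was 1.29 ± 0.532 CPM (n = 5) and 69.7 ± 21.6 CPM (n = 3) on P3 (5.68, SE 0.34, edgeR's adjusted p = 9.20e-06).

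The P3 minus P0 change of the genotype difference, tested as an interaction, was positive for all 9 members, from 1.56 for Sprr2a3 to 4.70 for Sprr2k, with a median of 2.90 against -0.02 for all genes tested, and without WT replicate 1 of P0 it was -0.13 for Sprr2a3. Sprr2d had 3.76 (SE 1.24) and Sprr2h 2.62 (SE 0.98). None was called by edgeR, where 0.0% of all genes were called. The unadjusted p was under 0.05 for 5 members by edgeR, 6 by DESeq2 and 2 by limma voom, where edgeR put 7.60% of all genes there. DESeq2 and limma voom called 0 members, where 0.393% and 0.0% of all genes were called. The interaction was 2.65 for Sprr2d and 1.09 for Sprr2h within run A, and 1.19 and 1.51 within run B. Adding the epithelial score to the fit gave 0.14 and 0.0041.

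The members moved together across libraries to different degrees. Over the 14 libraries, Pearson's r of log2(CPM + 1) was 0.20 to 0.97 over the 45 pairs with a median of 0.72, and 0.15 to 0.93 with a median of 0.57 after group means were taken out. Sprr2d, Sprr2e and Sprr2g formed the closest set, at 0.93 for Sprr2d with Sprr2e and 0.97 for each of them with Sprr2g, and at 0.83 to 0.93 within groups. Sprr2h was at 0.85 with Sprr2b and at 0.82 with Sprr2d. The lowest value was in both cases that of Sprr2a1 with Sprr2g. Sprr2a1, Sprr2f and Sprr2k held only 142, 49 and 117 counts over all 14 libraries. The part of counting error, or of the split between the Sprr2a copies, in their low values was not tested. The libraries share tissue make-up and depth, so these values are descriptions.

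Genes outside the family whose level was most like the Sprr2 sum were taken from 13337 genes with at least 2 CPM on average. Over the 14 libraries Pearson's r of log2(CPM + 1) was 0.975 for Krt6b, a keratin of stressed and wounded epidermis, 0.974 for Urah, 0.969 for the envelope gene Rptn (repetin), 0.959 for Rnh1, a ribonuclease inhibitor, 0.958 for Sprr1b, 0.955 for Gjb6 (connexin 30), 0.954 for Fhl2 and 0.952 for Serpinb6c. With group means taken out the highest were Krt6b at 0.971, Hars at 0.967, Urah and Rdh1 at 0.957 each and Ankrd22 at 0.954. Krt6b was at 499, 362, 180 and 25.8 CPM in the WT libraries of P0, 105 and 92.2 CPM in the Krt9 null libraries of P0, 3.39 to 13.8 CPM in the WT libraries of P3, and 26.9, 3.72 and 62.6 CPM in the Krt9 null libraries of P3. In both P0 groups and in the Krt9 null group of P3 the libraries stood in the same order as by their Sprr2 sum. In the WT group of P3 the order differed, since WT replicate 5 had the highest sum (28.7 CPM) but 10.8 CPM of Krt6b, against 13.8 CPM in replicate 1. Krt6b was picked for its likeness to the sum in these same libraries, so this order is only a description. Involucrin (Ivl), another cross-linked envelope protein, had 0.43 over the 14 libraries and 0.85 within groups.

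In this list and those below, counts of genes that fell or rose are counts of genes called by edgeR. Of all genes, 8.07% were called lower and 8.49% higher on P3 in WT paws. Among the other small proline-rich genes of the cluster, 4 of 5 fell from P0 to P3 in WT paws and 1 rose. Sprr1b, a cross-bridging relative, fell from 439 ± 230 CPM (SD, n = 4) to 26.8 ± 19.9 CPM (n = 5), a log2 fold change of -4.10 (SE 0.81, edgeR's adjusted p = 0.00917). Sprr1a fell from 175 ± 111 to 35.5 ± 27.8 CPM (-2.39, SE 0.64, edgeR's adjusted p = 0.0305), but was at 0.19 within run B. Sprr2i fell from 1.43 ± 1.04 to 0.0796 ± 0.0704 CPM (-4.13, SE 0.84, edgeR's adjusted p = 0.00572). Sprr3, known from oesophagus and oral epithelium, held 57 counts in WT on P0 and 0 on P3 and was at least 23.2-fold lower (edgeR's adjusted p = 0.0170). Sprr4, the gene at the far end of the cluster, rose from 0.103 ± 0.0770 to 4.77 ± 5.46 CPM (5.29, SE 1.07, edgeR's adjusted p = 0.00838). Its day difference in Krt9 null paws was 5.01 (SE 1.41, edgeR's adjusted p = 0.126).

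**Figure D5:**
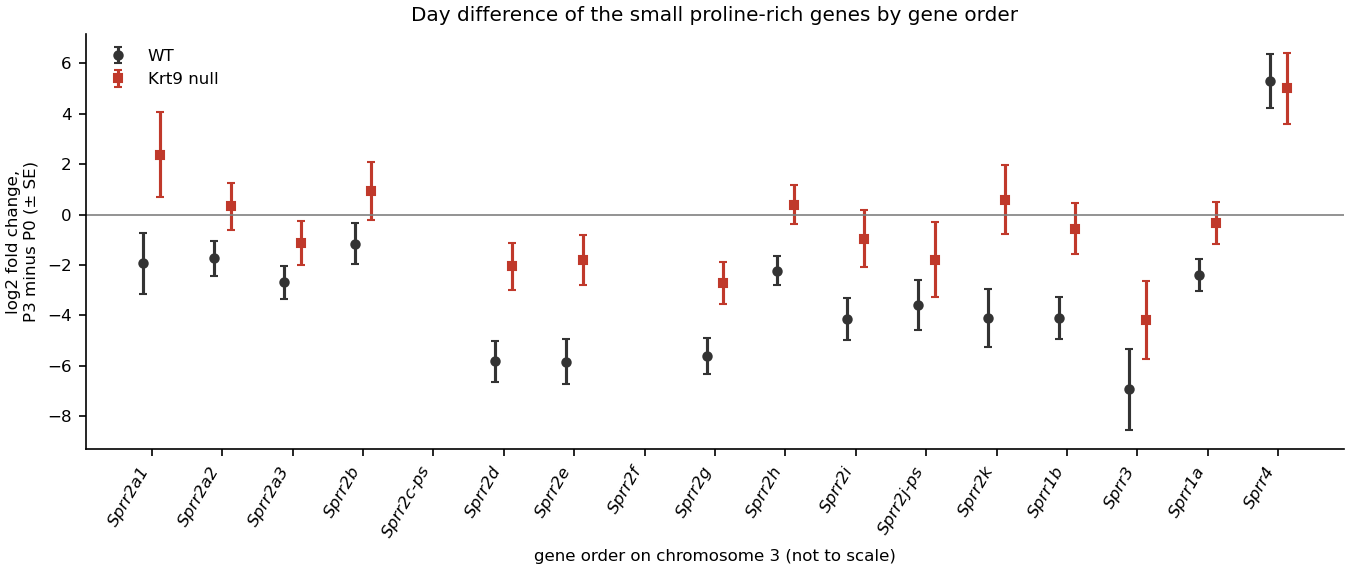
Fitted P3 minus P0 difference (log2 fold change, y axis, with standard error) of the small proline-rich genes in WT and Krt9 null paws, in gene order along chromosome 3, not to scale. Sprr2c-ps and Sprr2f did not pass the filter and have no point. In WT paws the genes from Sprr2a1 to Sprr1a lie below 0 and Sprr4 lies at 5.29.

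Of 20 cornified envelope and cross-linking genes, 13 fitted lower and 7 higher on P3 in WT paws, with a median of -0.35. Of the 20, edgeR called 7 lower and 0 higher. Rptn fell most among those named, from 193 ± 119 to 10.4 ± 5.98 CPM (-4.21, SE 0.87, edgeR's adjusted p = 0.0106), the envelope gene Cnfn (cornifelin) fell at -1.41 (SE 0.26, edgeR's adjusted p = 0.00381), and loricrin (Lor), the main envelope protein, fell from 8366 ± 3033 to 4060 ± 660 CPM (-1.05, SE 0.17, edgeR's adjusted p = 0.00172). The day difference of Lor in WT paws was -1.27 within run A and -0.29 within run B. Its WT libraries overlapped between the days, with 4294 CPM in replicate 4 of P0 and 5061 CPM in replicate 1 of P3. Ivl was at 157 ± 48.6 CPM on P0 and 146 ± 52.6 CPM on P3 (-0.12, SE 0.42, edgeR's adjusted p = 0.892). All 20 late cornified envelope genes fitted lower on P3 in WT paws and 5 were called. Lce3d, Lce3e and Lce3f were among these 5, at -7.01, -4.29 and -4.58 (edgeR's adjusted p = 0.00184, 0.00425 and 0.000637). In Krt9 null paws Tgm3, an epidermal transglutaminase, was the 1 gene called of the 20 envelope genes, and it rose from 58.2 ± 22.5 CPM (n = 2) to 192 ± 60.9 CPM (n = 3) at 1.83 (SE 0.26, edgeR's adjusted p = 0.0133), against 0.31 (SE 0.18, edgeR's adjusted p = 0.255) in WT paws. On P3 the genotype difference was 0.89 for Lor (SE 0.19) and 1.38 for Ivl (SE 0.46), with edgeR's adjusted p = 0.423 and 0.704. Within run A it was 0.83 for Lor and 0.04 for Ivl, and within run B 0.79 and 1.30. With the epithelial score in the fit it was 0.62 and 0.26. In the fit of all libraries, all 20 envelope and all 20 late envelope genes fitted lower in Krt9 null paws on P0 and higher on P3 with 0 called (medians -0.53 and 0.93, and -0.33 and 0.85).

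Genes of stressed keratinocytes went both ways with the day, 4 called higher and 4 called lower of 22 in WT paws. Krt6a and Krt16, partner keratins of stressed and thick epidermis, fell at -3.40 (SE 0.51, edgeR's adjusted p = 0.00262) and -4.17 (SE 0.72, edgeR's adjusted p = 0.00488), and Krt75, a hair follicle keratin on the same list, rose at 3.28 (SE 0.57, edgeR's adjusted p = 0.00459). Of 35 transcription factors of keratinocyte differentiation and stress, 25 fitted lower and 10 higher, with 9 called lower and 4 called higher. The AP-1 subunit Fosl1 fell from 2.95 ± 2.10 to 0.254 ± 0.173 CPM (-3.71, SE 0.72, edgeR's adjusted p = 0.00480), Stat3 fell at -0.72 (SE 0.15, edgeR's adjusted p = 0.00671), and Maf rose at 0.50 (SE 0.11, edgeR's adjusted p = 0.00917). Of 13 targets of the antioxidant factor Nrf2, 2 fell and 1 rose, with the haem oxygenase Hmox1 at -1.91 (SE 0.14, edgeR's adjusted p = 1.45e-05) and Srxn1, which repairs oxidised peroxiredoxins, at -1.07 (SE 0.18, edgeR's adjusted p = 0.00230).

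Cell type markers moved with the day as well. In WT paws 15 of 18 epithelial markers fitted lower on P3, and the median of the 18 was -0.50. Of the 18, 6 were called lower, the desmosome genes Pkp3, Dsg3 and Jup among these 6 (-0.65, -0.84 and -0.77). Of 5 suprabasal keratinocyte markers, Krt2 rose (4.64) and Krt78 fell (-1.10). All 10 hair follicle and nail markers fitted higher and 7 were called, led by the inner root sheath keratins Krt71 and Krt25 (4.23 and 3.83). All 6 macrophage markers fitted higher and 4 were called (Adgre1 at 1.21). All 8 neutrophil markers fitted higher and 2 were called (Ly6g and Camp at 2.89 and 2.97). Among markers of deeper tissues, 3 of 8 fast muscle, 1 of 8 fibroblast and 1 of 6 endothelial markers were called lower, and edgeR called 0 of 8 cartilage and bone markers. The summed hair and nail level was 152 to 263 CPM in the WT libraries of P0 and 449 to 2582 CPM in those of P3, and the summed neutrophil level was 7.52 to 68.0 CPM and 81.9 to 178 CPM. Marker sums by genotype are given for the suprabasal and fibroblast lists. In these lists edgeR called 0 genes for genotype on either day, where 0.00463% of all genes were called. The 5 suprabasal markers summed to 11854 to 26894 CPM in WT and 7641 to 14932 CPM in Krt9 null paws of P0, and to 10972 to 18972 CPM and 12159 to 34292 CPM on P3. The 8 fibroblast markers summed to 42047 to 70466 CPM and 34705 to 50682 CPM on P0, and to 36326 to 82870 CPM and 26853 to 68435 CPM on P3. The groups overlapped in each of these 4 comparisons. The part of marker levels in the Sprr2 differences was not tested, apart from the fits with the epithelial score above. Of 7 markers of squamous foregut and periderm, Krt13 fell and Krt4 rose, and they were at 2.83 ± 1.20 and 0.564 ± 0.314 CPM in WT paws of P0 and at 0.289 ± 0.0954 and 1.47 ± 0.583 CPM in those of P3.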

How the data were processed

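The authors deposited 1 table of raw read counts per gene for the 14 libraries, without normalization. Alignment and counting tools in the submitters' processing notes are STAR 2.7.10a and featureCounts, beside the R packages edgeR and limma and the build GRCm39. Strand setting, filters and treatment of multi-mapping reads are unstated in the sources used here. Of 56691 gene IDs, 52073 matched a symbol in GENCODE M21, an annotation of GRCm38 used for names, exon lengths and shared windows. Promoter windows and gene order came from RefSeq tables of GRCm38.p6.

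Genes were kept by edgeR's filterByExpr with a minimum count of 10 (21619 kept), scaled by TMM, and tested by robust quasi-likelihood in edgeR 4.0.16 under R 4.3.3. The model held the 4 groups of all 14 libraries plus the labelled sex, leaving 9 residual degrees of freedom. P-values were adjusted by Benjamini-Hochberg over all genes tested, with calls at 0.05. The procedure was tested on simulated data. Differences are on the log2 scale, P3 minus P0 or Krt9 null minus WT. DESeq2 1.42.0 and limma 3.58.1 (voom) were alternatives, beside other scalings, filters and covariates and each library left out. Python 3.11.15 with pandas 2.3.3, NumPy 2.4.6 and matplotlib 3.10.9 served for tables and figures. The labels list separate samples with a litter number but do not say that each is 1 animal, so p-values measure the spread between these samples. Within a day, only replicates 1 of both genotypes on P0 (litter 1) and WT replicates 2 and 3 on P3 (litter 2) share a litter, and their residuals correlated at 0.17 and -0.04, while the consensus correlation of litter mates estimated over all genes was 0.555.

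Named genes were all members, up to 3 called genes of each other list with the smallest adjusted p (where none was called, up to 3 of the highest mean CPM), Sprr1a, Sprr1b, Sprr3, Sprr4, Ivl and Lor, and the genes most like the Sprr2 sum by Pearson's r (8 over libraries, 5 within groups). Some genes this rule reaches are given only in the counts of their lists. The result of 1 marker list is not reported here. The members, lists, tests and alternatives were chosen with earlier results of these data known.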

Additional observations from a re-analysis of the deposited data

Results flagged for a closer look

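Over the members (19 sets) and their sum, 21 sets of 4 or 5 WT libraries were examined for a library whose gap to its nearest neighbour was large for the range of the set, and 3 held one, where chance gives about 1 in 20. WT replicate 1 of P0 held 1.15 CPM of Sprr2a1 and 24.7 CPM of Sprr2a3, and the other 3 WT libraries of that day reached 0.14 and 5.23 CPM. How reads were split between the Sprr2a copies is uncertain. WT replicate 4 of P3 held 0.166 CPM of Sprr2k, from 5 counts, and the other 4 WT libraries of that day held 0. With those 4 at 0 any count would raise this flag, so the rate of about 1 in 20 does not apply to it.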

How the results depend on the processing

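The 6 calls in the WT day comparison became 3 in run B alone, 3 with the epithelial score as a covariate and 3 with litter as a replicate block in limma voom (5 without the block), where 17.1%, 7.4% and 13.8% of all genes were called. They ran from 3 (without WT replicate 1 of P0, where 8.32% of all genes were called) to 7 with 1 library left out. The median there moved from -2.69 to -4.16 with a filter of 1 CPM in 4 libraries, to -4.11 with the Sprr2a copies summed and to -0.70 in run B alone. With that filter or with copies summed the median is over another set of genes. In each of these settings 0 of the 6 members kept changed direction. With no filter 2, 5, 2 and 5 of 10 members were called for genotype on P0, genotype on P3, day in Krt9 null paws and the interaction, where 0.494%, 1.71%, 4.6% and 1.68% of all genes were. In run B alone 3 were called for genotype on P3, 4 for day in Krt9 null paws and 2 for the interaction, where 8.77%, 22.6% and 2.64% of all genes were. Each P0 group of run B is 1 library, assumed there to vary like the P3 libraries. For day in Krt9 null paws DESeq2 called 1 and the epithelial covariate 2, where 5.06% and 0.287% of all genes were called. Members lower without overlap in Krt9 null paws of P0 numbered 1 to 6 with 1 library of that day left out, a setting chosen after seeing the data. The genotype median on P0 was -0.35 in run B and reversed to 0.30 with the epithelial covariate. On P3 it was 0.24 in run A and 0.15 with that covariate, and the interaction median was 1.34 in run A, 1.51 in run B and 0.0041 with it. The median of day in Krt9 null paws, 0.33, differed in sign between settings. It was -1.48 with the 1 CPM filter, -0.60 with copies summed and -0.43 with only the groups compared. These 3 medians are over other sets of genes, and 0 of 6, 0 of 6 and 0 of 8 members changed direction there. The median was -3.34 in run A, 1.498 in run B, -1.05 with the epithelial covariate and -0.38 by limma voom. With litter as a replicate block it was -0.13, and with 1 library left out -0.53 to 0.78.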

Other observations

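Beside Sprr2g, 2 further pseudogenes stand among the Sprr2 genes. Sprr2j-ps, which RefSeq lists as a transcribed pseudogene, held 59, 44, 27 and 2 counts in the WT libraries of P0, 0 and 16 counts in the Krt9 null libraries of P0, 4, 4, 4, 0 and 3 counts in the WT libraries of P3, and 4, 0 and 2 counts in the Krt9 null libraries of P3. Its fitted day difference in WT paws was -3.59 (SE 1.00, edgeR's adjusted p = 0.0256), so it fell along with its neighbours. Sprr2c-ps held 5 counts, all in WT replicate 1 of P0.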
